A study of Homo sapiens with 7 samples.

Results

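The genes described here are the feedback genes of the canonical Wnt pathway in UM-UC-3, an established human line derived from a bladder (urothelial) carcinoma. They were taken from a list of 10 symbols (DKK1, DKK3, NKD1, NKD2, LEF1, AXIN2, BAMBI, RNF43, ZNRF3 and TCF7), of which 8 are among the 13872 genes of the deposited expression table. AXIN2 and RNF43 are not listed there, so their levels were not analysed here. The 7 libraries of total RNA came from 3 clones with high activity of aldehyde dehydrogenase (ALDH) (numbers 1, 6 and 10), 3 clones with low ALDH activity (numbers 1, 3 and 8) and 1 wild-type UM-UC-3 culture. The clones were isolated with the ALDEFLUOR assay, which makes living cells fluoresce according to their ALDH activity. The submitters treat ALDH-high clones as cancer stem-like cells and ALDH-low clones as their non-stem-like counterpart. Every library stems from the same line, each clone gave 1 library, and no further allele or agent is labelled, the stated culture medium being DMEM with serum, so n = 3 stands for 3 clones, and there is no replicate of the wild type.

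Wnt ligands bind Frizzled receptors and the co-receptors LRP5 and LRP6 at the cell surface, which stops the cytoplasmic destruction complex from degrading beta-catenin. Beta-catenin then enters the nucleus, joins TCF and LEF factors on DNA and switches on target genes. Several of these targets encode brakes on the pathway itself: DKK1 is secreted and blocks LRP5 and LRP6, NKD1 and NKD2 bind Dishevelled, AXIN2 is a scaffold of the destruction complex, and RNF43 and ZNRF3 are ubiquitin ligases that clear Frizzled from the membrane. RNA levels of such genes are often used as a readout of the pathway, although most of them also answer to other signals.

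DKK1 was the member in which the ALDH groups differed most on the log2 scale, so the 250 bases before its annotated start are shown first, beside those of NKD2, the other member whose ALDH-high values all lay above the ALDH-low values. The sequences are from RefSeq (GRCh38.p14), which had promoter entries for 6 of the 10 symbols (DKK1, NKD2, LEF1, BAMBI, RNF43 and TCF7), and both genes lie on the plus strand. The DKK1 stretch is chr10:52314031-52314280 and the NKD2 stretch is chr5:1008552-1008801, each written 5′ to 3′ and ending at the base before the start. Capitals mark CTTTGA, a short form of the sequence bound by TCF and LEF factors, or its reverse complement TCAAAG.
DKK1: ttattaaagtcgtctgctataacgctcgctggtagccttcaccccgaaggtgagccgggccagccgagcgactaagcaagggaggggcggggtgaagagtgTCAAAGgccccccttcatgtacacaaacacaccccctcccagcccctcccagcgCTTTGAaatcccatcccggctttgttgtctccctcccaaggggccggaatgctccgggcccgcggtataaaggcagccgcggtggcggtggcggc
NKD2: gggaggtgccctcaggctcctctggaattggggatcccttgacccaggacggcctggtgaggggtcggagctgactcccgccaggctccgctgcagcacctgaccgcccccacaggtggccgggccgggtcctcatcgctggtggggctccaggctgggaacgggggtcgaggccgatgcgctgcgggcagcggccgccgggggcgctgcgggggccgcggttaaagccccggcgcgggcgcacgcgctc

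The DKK1 stretch held the 6 letters at 2 places, on the minus strand 149 to 144 bases before the start and on the plus strand 95 to 90 bases before it. Of the 6 members with a promoter entry, only DKK1 had a match in this window. On either strand, 11.2% of all 35116 RefSeq promoter entries held at least 1 CTTTGA in the same 250 bases, and 0.977% held at least 2. The longer core CTTTGAT, which contains CTTTGA and was found in 2.26% of entries, occurred in none of the members' entries. These matches describe the letters in 1 window and say nothing about binding in these cells.

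The deposited values are CPM (counts scaled by library size), and the smallest value above 0 was 0.04 CPM in every library, so levels well under 1 CPM rest on few reads. Read totals are not part of the table, and the depth is therefore unknown beyond this. Where 3 values are listed for a group, they stand in the order of clones 1, 6 and 10 (ALDH-high) or 1, 3 and 8 (ALDH-low). A positive change means higher in ALDH-high clones; changes were taken on the log2(CPM + 1) scale and tested with limma over all 12705 genes that reached 1 CPM in at least 3 clones, and a gene is said to have risen or fallen where its Benjamini-Hochberg adjusted p was under 0.05. By median Spearman correlation with the other libraries, the wild type (0.925) and ALDH-high clone 1 (0.95) stood lowest, and the other 5 libraries lay between 0.957 and 0.961. The sort was visible in ALDH1A1, an enzyme that the ALDEFLUOR assay detects, with 33.37 to 96.32 CPM among the ALDH-high and 0 to 0.08 CPM among the ALDH-low clones. As for the labelled cell type, the keratin genes KRT8 (56.16 to 391.35 CPM) and KRT18 (142.95 to 582.39 CPM) were present in all libraries, whereas the uroplakin genes UPK1A, UPK1B, UPK2 and UPK3A, as well as KRT5, TP63, CDH1 and EPCAM are not listed. Of the mesenchymal markers 6 of 7 are listed, with a summed level of 1075 to 1240 CPM in ALDH-high and 1131 to 1539 CPM in ALDH-low clones. VIM made up most of it (1026.8 to 1459.68 CPM). The transcription factor genes ZEB2 (0.443 against 6.40 CPM, -2.36 log2 units, limma adjusted p = 0.00706) and SNAI2 (0.177 against 2.94 CPM, -1.69 log2 units, limma adjusted p = 0.0493) fell. Both entered the test only through their ALDH-low values, since neither reached 1 CPM in any ALDH-high clone. From the same list, CDH2 (-1.10), ZEB1 (-0.21), VIM (-0.10) and TWIST1 (0.11 log2 units) did not pass (limma adjusted p from 0.128 to 0.831). The falls of ZEB2 and SNAI2 lay along the same contrast as the results below, and their part in those results was not tested. No marker from the fibroblast or endothelial list appears in the table. Of the leukocyte list only CD68 is listed, at 64.36 to 139.04 CPM over the 7 libraries. The basal markers EGFR and CD44 and the luminal markers KRT7, PPARG and FOXA1 are listed as well.

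DKK1 (ENSG00000107984, chromosome 10), the secreted inhibitor of the Wnt co-receptors, was high in ALDH-high clones and close to absent in ALDH-low clones. Its levels were 6.83, 10.26 and 8 CPM in the ALDH-high clones, and 0.52, 0.71 and 0.12 CPM in the ALDH-low clones. The wild type, at 7.51 CPM, lay inside the ALDH-high range. The lowest ALDH-high value was thus several times the highest ALDH-low value, and for this gene the unsorted culture resembled the ALDH-high clones. In bulk RNA, fewer expressing cells in a clone and less RNA per cell cannot be told apart. Mean levels were 8.36 ± 1.74 against 0.45 ± 0.301 CPM (SD, n = 3 each), an 18.6-fold difference. DKK1 rose by 2.70 log2 units (SE 0.252, 95% interval 2.12 to 3.28, limma adjusted p = 0.00333). The gene entered the test only through its ALDH-high values, since none of its ALDH-low values reached 1 CPM, and with no filter on low values the limma adjusted p was 0.00382. With each clone left out in turn its change stayed between 2.52 and 2.83 log2 units, and the adjusted p between 0.00855 and 0.026. With 3 clones against 3, the smallest p that an exact two-sided permutation test can give is 0.1, which DKK1 reached, so the call rests on the spread that limma pools across genes. An antisense gene, PRKG1-AS1, overlaps DKK1 in the annotation (GENCODE 29), is not listed in the table, and the sources used here do not say whether the counting used strand.

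**Figure D1:**
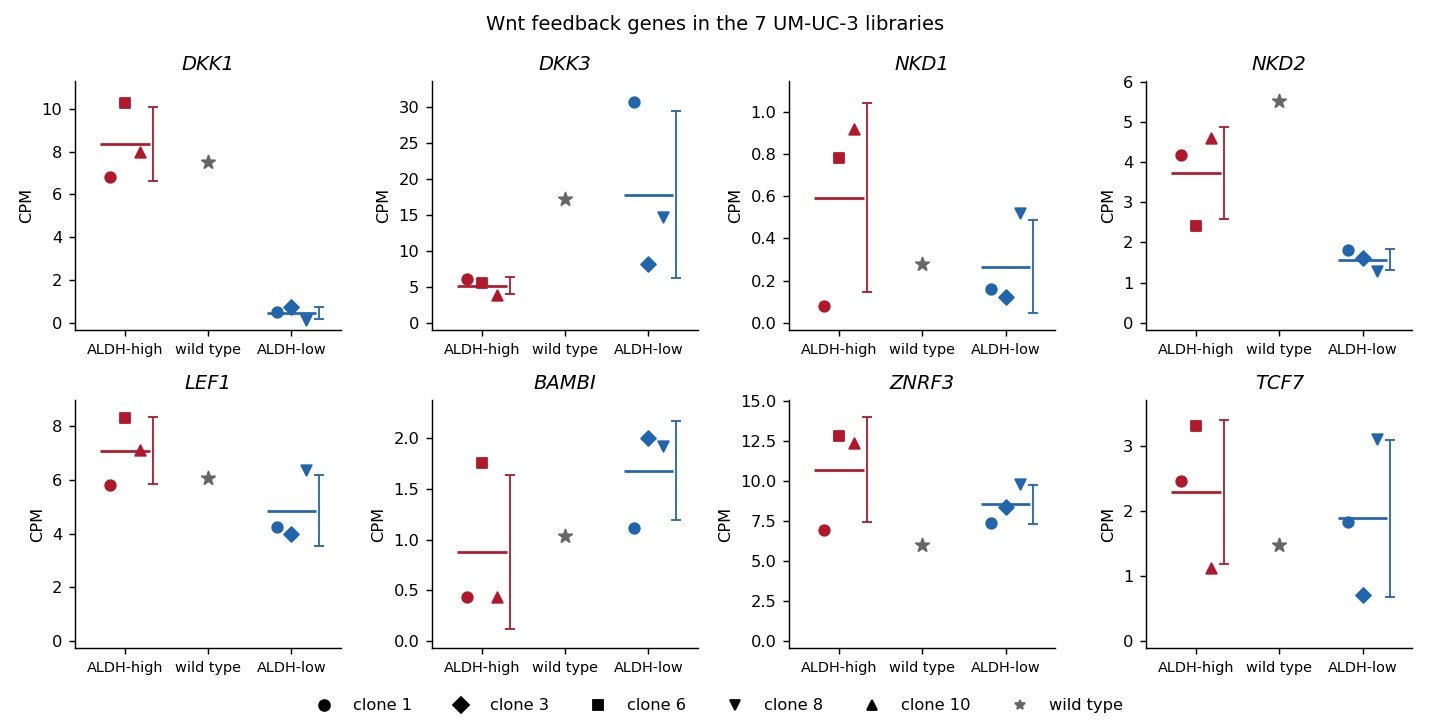
Level of the 8 listed Wnt feedback genes in CPM (vertical axis, a separate scale for each gene) in ALDH-high clones, wild type and ALDH-low clones (horizontal axis); symbols are libraries, horizontal lines are means and bars are ± 1 SD over 3 clones. The ALDH-high and ALDH-low symbols are apart for DKK1, NKD2 and DKK3 and overlap for the other 5 genes.

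DKK1 was the only member that passed the test, out of 7 tested, beside 1.34% of all genes tested (0.645% higher and 0.693% lower in ALDH-high clones). It was known from earlier results of these data that DKK1 would pass. The groups did not overlap in 3 of the 7 tested members, 2 with ALDH-high above and 1 with it below, beside 26.1% of all genes tested (14.0% above and 12.1% below). With 7 genes tested, neither count sets the members apart from other genes.

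DKK3 (ENSG00000050165, chromosome 11), a more distant relative of DKK1 whose place in Wnt signalling is less settled, lay in the opposite order. Its levels were 6.12, 5.5 and 3.8 CPM in the ALDH-high clones, and 30.68, 8.13 and 14.64 CPM in the ALDH-low clones. Every ALDH-low clone was above every ALDH-high clone, but the ALDH-low clones spread widely, with clone 1 far above clone 3. The wild type had 17.27 CPM, above all ALDH-high clones and inside the ALDH-low range. The means were 5.14 ± 1.20 and 17.8 ± 11.6 CPM (SD, n = 3 each), and the change of -1.45 log2 units (SE 0.422, 95% interval -2.42 to -0.48) did not pass over all genes (limma adjusted p = 0.124). Without ALDH-low clone 1 it was -0.98 log2 units (limma adjusted p = 0.247), and without ALDH-low clone 3 it was -1.88 (limma adjusted p = 0.0598). DKK1 and DKK3 therefore placed the wild type on different sides: with the ALDH-high clones for DKK1, and among the ALDH-low clones for DKK3.

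Of the Naked cuticle genes, which encode proteins that bind Dishevelled and dampen the signal, NKD2 (ENSG00000145506, chromosome 5) followed the order of DKK1 with a smaller difference. It stood at 4.17, 2.42 and 4.6 CPM in the ALDH-high clones, and at 1.8, 1.61 and 1.28 CPM in the ALDH-low clones. The wild type, at 5.52 CPM, exceeded all 6 clones. The groups did not overlap, yet ALDH-high clone 6 came close to the ALDH-low values. Means were 3.73 ± 1.15 and 1.56 ± 0.263 CPM (SD, n = 3 each), and the change of 0.86 log2 units (SE 0.253, 95% interval 0.27 to 1.44) did not pass (limma adjusted p = 0.128). All 3 ALDH-high clones exceeded the ALDH-low clones in both DKK1 and NKD2, but the order within the ALDH-high group differed, with clone 6 highest for DKK1 and lowest for NKD2.

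NKD1 (ENSG00000140807, chromosome 16) was low and was not tested, because it reached 1 CPM in no library. It had 0.08, 0.78 and 0.92 CPM in the ALDH-high clones, 0.16, 0.12 and 0.52 CPM in the ALDH-low clones, and 0.28 CPM in wild type. The groups overlapped, with ALDH-high clone 1 lowest of all 7 libraries, and an exact two-sided permutation test of the CPM means gave p = 0.4.

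LEF1 and TCF7 encode DNA-binding partners of beta-catenin that are themselves induced by the pathway in many tissues. LEF1 (ENSG00000138795, chromosome 4) had 5.8, 8.29 and 7.12 CPM in the ALDH-high clones, and 4.24, 3.97 and 6.36 CPM in the ALDH-low clones. ALDH-low clone 8 exceeded ALDH-high clone 1, so the groups overlapped, and the wild type (6.07 CPM) lay in that zone. The change was 0.47 log2 units (95% interval -0.07 to 1.02, limma adjusted p = 0.318). TCF7 (ENSG00000081059, chromosome 5) had 2.46, 3.32 and 1.12 CPM in the ALDH-high clones, and 1.84, 0.71 and 3.12 CPM in the ALDH-low clones, with 1.48 CPM in wild type. The groups covered nearly the same range, and the change of 0.22 log2 units (95% interval -0.67 to 1.11, limma adjusted p = 0.789) turned its sign when clone 6 of the ALDH-high or clone 3 of the ALDH-low group was omitted. TCF7 overlaps SKP1, which is listed, on the other strand in the annotation, and LEF1 overlaps LEF1-AS1, which is not listed. ZNRF3 and NKD1 also overlap annotated genes that are not listed, some of them on the same strand.

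ZNRF3 (ENSG00000183579, chromosome 22), the ubiquitin ligase that removes Frizzled from the surface, had 6.95, 12.81 and 12.36 CPM in the ALDH-high clones. The ALDH-low clones had 7.4, 8.37 and 9.84 CPM, and the wild type had 5.99 CPM. ALDH-high clones 6 and 10 lay above all ALDH-low clones and ALDH-high clone 1 below them, next to the wild type. The change was 0.26 log2 units (95% interval -0.34 to 0.86, limma adjusted p = 0.619), and its size depended on single clones. It was 0.52 log2 units without ALDH-high clone 1, 0.12 without ALDH-high clone 6, 0.14 without ALDH-high clone 10 and 0.17 without ALDH-low clone 1 (limma adjusted p from 0.214 to 0.868).

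BAMBI (ENSG00000095739, chromosome 10) encodes a decoy receptor for TGF-beta and BMP signals and is a target of beta-catenin as well. It had 0.44, 1.76 and 0.44 CPM in the ALDH-high clones, 1.12, 2 and 1.92 CPM in the ALDH-low clones, and 1.04 CPM in wild type. Only ALDH-high clone 6 reached the ALDH-low range, and the gene passed the filter through its ALDH-low clones and that clone. The change was -0.57 log2 units (95% interval -1.29 to 0.16, limma adjusted p = 0.365), and between -0.88 (without ALDH-high clone 6) and -0.41 (without clone 1 or 10 of that group) with a clone left out.

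**Figure D2:**
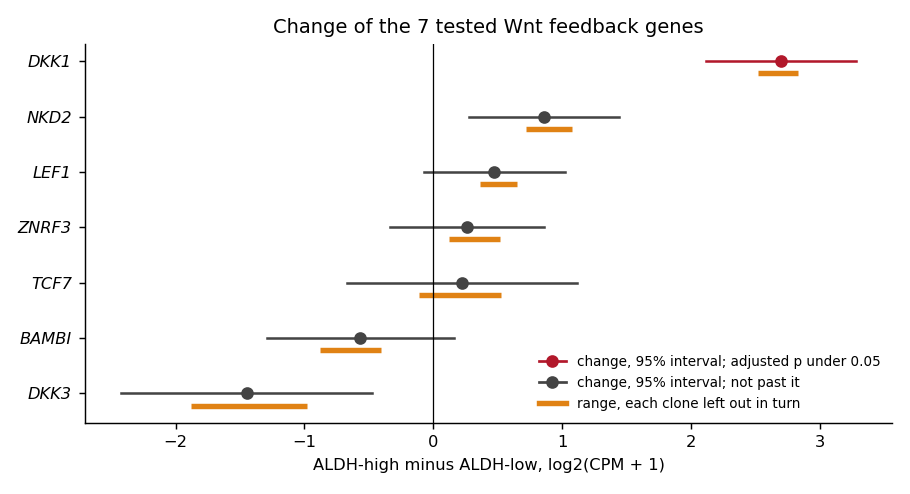
Change of the 7 tested Wnt feedback genes on log2(CPM + 1), ALDH-high minus ALDH-low (horizontal axis); points are limma estimates, thin lines their 95% intervals, and thick orange lines the range when each clone was left out in turn. DKK1 stands apart at 2.70, DKK3 lies lowest at -1.45, and the leave-one-out range of TCF7 spans 0.

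Over the 7 libraries the members did not move as a block. On log2(CPM + 1), the Pearson correlation with DKK1 was 0.83 for NKD2, 0.68 for LEF1, -0.55 for BAMBI and -0.61 for DKK3, and between 0.09 and 0.38 for NKD1, TCF7 and ZNRF3. ZNRF3 and NKD1 correlated more with each other (0.86) than either did with DKK1. These values describe 7 libraries that share the ALDH contrast, and no p is given. Set against the clones, the wild type lay inside the ALDH-high range and outside the ALDH-low range for DKK1 (above the latter) and BAMBI (below it), a position that 19.8% of all genes tested shared. It was the reverse for DKK3, which 16.1% shared. It lay outside both ranges for NKD2 (above) and ZNRF3 (below), and inside both for NKD1, LEF1 and TCF7.

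The rest of the pathway was read from lists by role, chosen with earlier results known. In all, 75 genes from the 8 lists were tested, of which 1 rose (FZD8) and 0 fell, with 17 at an unadjusted limma p under 0.05, against 170 called genes (1.34%) and 2502 genes (19.7%) at that unadjusted limit over the whole table. The change was above 0 for 30 of the 75 list genes (40%), beside 50.4% of all genes tested, and the median change was -0.13 beside 0.00 log2 units. In 22 of the 75 (29.3%), beside 15.6% of all genes tested, the wild type and ALDH-high clone 1 both lay below the other 5 libraries. These 2 libraries were also those that correlated least with the rest. The pattern was picked after the values had been seen. It was uneven over the lists, from 5 of 11 Wnt receptor genes to 0 of 11 BMP and TGF-beta feedback genes. The part of this library difference in the list medians was not tested.

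**Figure D3:**
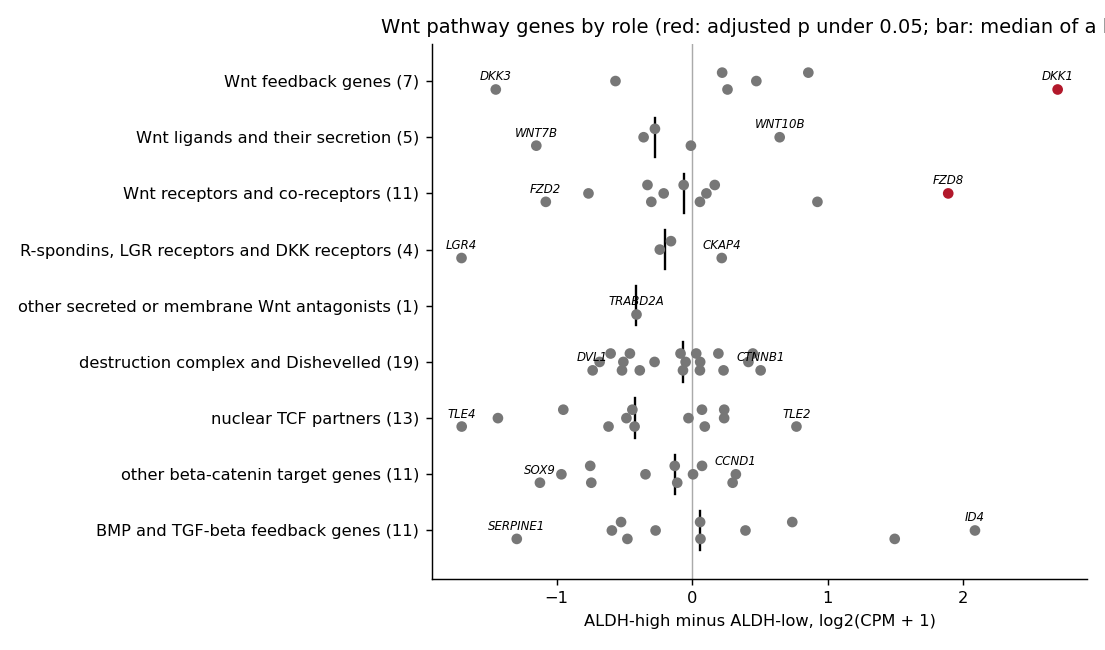
Change of tested Wnt and BMP pathway genes on log2(CPM + 1), ALDH-high minus ALDH-low (horizontal axis), by role with the number of tested genes in brackets; each point is a gene, red marks an adjusted p under 0.05, black bars are list medians, and the genes at both ends are named. DKK1 at 2.70 and FZD8 at 1.89 are the only red points.

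Among Wnt receptors, 11 of the 16 symbols looked for were tested, 1 rose and 0 fell, with a median of -0.06 log2 units. FZD8, a Frizzled receptor, had 9.26, 15.8 and 13.24 CPM in the ALDH-high clones, 1.6, 3.22 and 3.4 CPM in the ALDH-low clones, and 12.07 CPM in wild type. As with DKK1, the groups were well apart and the wild type lay with the ALDH-high clones. FZD8 rose by 1.89 log2 units (SE 0.288, limma adjusted p = 0.0297), a 4.66-fold difference of means. Leaving out clone 6 or 10 of the ALDH-high group, or clone 1 or 8 of the ALDH-low group, ended the call (limma adjusted p from 0.0763 to 0.131), and the microRNA gene MIR4683 has the same 7 values, so the source of the reads is uncertain. FZD2, another Frizzled gene, lay in the opposite order at 2.40 ± 0.982 against 5.98 ± 0.405 CPM (SD, n = 3 each, -1.08 log2 units, limma adjusted p = 0.0933), with 12.43 CPM in wild type. PTK7, a co-receptor with an inactive kinase domain, was at 4.16 ± 1.29 against 1.69 ± 0.481 CPM (0.92 log2 units, limma adjusted p = 0.117).

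Of the ligand and secretion genes, 5 of 21 were tested and 0 passed with limma, with 1 at an unadjusted p under 0.05 and a median of -0.27 log2 units. The ligand gene WNT10B stood at 9.88 ± 1.31 against 5.95 ± 0.739 CPM (SD, n = 3 each, 0.65 log2 units, limma adjusted p = 0.139) without overlap between the groups. WNT7B, which has the same values as the gene CR536603.1, was at 11.3 ± 8.71 against 22.9 ± 10.1 CPM, and PORCN, which acylates Wnt ligands for export, at 1.16 ± 0.431 against 1.58 ± 0.18 CPM. The R-spondin and DKK receptor list had 4 of 10 genes tested, 0 called with limma, 0 at an unadjusted p under 0.05 and a median of -0.20. CKAP4, a surface receptor reported for DKK1, was at 57.6 ± 2.17 against 50.95 ± 16.4 CPM (0.22 log2 units, limma adjusted p = 0.621; 0.06 without ALDH-low clone 1 and 0.46 without ALDH-low clone 3) and shares its values with the gene RP11-651L5.2. KREMEN2, which joins DKK1 at the co-receptor, was at 1.13 ± 0.215 against 1.54 ± 0.533 CPM. LGR4, an R-spondin receptor, was at 0.743 ± 0.463 against 7.98 ± 8.74 CPM, a mean carried by ALDH-low clones 1 (17.48 CPM) and 8 (6.2 CPM). Of the other Wnt antagonists only TRABD2A, which encodes a protease that trims Wnt ligands, was tested out of 15, at 18.3 ± 2.32 against 24.96 ± 5.48 CPM (-0.41 log2 units, limma adjusted p = 0.314, and -0.26 without ALDH-low clone 1).

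Inside the cell, 19 of 20 genes of the destruction complex and Dishevelled were tested and 0 passed with limma, with 4 at an unadjusted p under 0.05 and a median of -0.07 log2 units. CTNNB1, which encodes beta-catenin, stood at 102 ± 18.2 against 70.9 ± 1.56 CPM (SD, n = 3 each) without overlap and at 102.31 CPM in wild type. Its change was 0.51 log2 units (SE 0.158, limma adjusted p = 0.145). BTRC, the ubiquitin ligase subunit that recognises beta-catenin, and DVL2, a Dishevelled gene, had changes of 0.45 and 0.41 log2 units (limma adjusted p = 0.177 and 0.198). ALDH-high clone 1 and the wild type were the lowest libraries in 6 of these 19 genes, a pattern picked after the values had been seen. GSK3A, a kinase of the complex named here after its values were seen, had 13.35 CPM in ALDH-high clone 1 and 16.75 CPM in wild type against 53.28 to 80.2 CPM in the other 5 libraries.

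Among nuclear TCF partners 13 of 14 were tested, with 0 calls by limma, 4 at an unadjusted p under 0.05 and a median of -0.43 log2 units. TCF7L1, a TCF factor that mostly represses targets, was at 1.53 ± 0.665 against 6.03 ± 2.79 CPM (SD, n = 3 each) without overlap, with 1.48 CPM in wild type (-1.43 log2 units, limma adjusted p = 0.0849). The co-repressor genes AES and TLE2 lay in opposite orders, at 75.5 against 139 CPM (-0.95 log2 units) and 5.03 against 2.41 CPM (0.77 log2 units), with limma adjusted p of 0.138 and 0.202. Without ALDH-high clone 1 these changes were -0.61 and 0.48 log2 units. TLE4, named here after its values were seen, was lower without overlap and did not pass (-1.70 log2 units, limma adjusted p = 0.238). Its mean levels were 4.58 against 11.47 CPM, with 0.08 CPM in ALDH-high clone 1. For TLE1 (-0.62) and TLE3 (0.07 log2 units) the groups overlapped. Other beta-catenin targets gave 0 calls by limma in 11 tested of 18, 2 at an unadjusted p under 0.05 and a median of -0.13. The 3 with the smallest p were all lower in ALDH-high clones without overlap and did not pass: PPARD, a nuclear receptor gene, at 12.1 against 25.96 CPM, SOX9, a transcription factor gene, at 4.27 against 9.98 CPM, and CD44, a hyaluronan receptor gene, at 376 against 587 CPM. Their order was opposite to that of DKK1, and 12.1% of all genes tested were likewise lower without overlap. For CD44, ALDH-high clone 1 (192.05 CPM) lay far below clones 6 and 10 (492.71 and 443.2 CPM), and the change of -0.75 log2 units was -0.33 without it.

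Because BAMBI acts on BMP and TGF-beta signals, feedback genes of those pathways were listed too, and 11 of 18 were tested. Limma called 0 of them, with 3 at an unadjusted p under 0.05 and a median of 0.06 log2 units. The 3 were ID2, ID3 and ID4, which encode inhibitors of helix-loop-helix factors and are classical BMP targets. ID3 had 1318.24, 1026.63 and 919.16 CPM in the ALDH-high clones, and 575.88, 700.69 and 662.56 CPM in the ALDH-low clones (0.74 log2 units, limma adjusted p = 0.0893). ID2 was at 16.9 ± 6.76 against 5.17 ± 1.58 CPM and ID4 at 5.71 ± 3.77 against 0.427 ± 0.635 CPM (SD, n = 3 each), with changes of 1.49 and 2.09 log2 units and limma adjusted p of 0.0777 and 0.103. All 3 genes were without overlap between the groups, and no other of the 11 was, beside 26.1% of all genes tested. An unadjusted limma p under 0.05 was found in 19.7% of all genes tested. With 11 genes tested, neither count sets the list apart from other genes. The wild type, at 6.75 and 675.19 CPM for ID2 and ID3, was nearer to the ALDH-low clones, and at 5.64 CPM for ID4 it was nearer to the ALDH-high clones.

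The genes whose pattern was most like that of DKK1 were sought among 5595 genes with a span of at least 1 log2 unit, by Pearson correlation over the 7 libraries, and 31 reached at least 0.95. The top 6 were GLT8D1 (a glycosyltransferase family gene, r = 0.98), CTD-2269F5.1 (0.98), EPHA7 (an ephrin receptor gene, 0.98), SMARCD3 (a chromatin remodelling subunit gene, 0.97), PCSK1N (a proprotein convertase inhibitor gene, 0.97) and IMPDH2 (an enzyme of guanine nucleotide synthesis, 0.97). In all 6 the wild type stood with the ALDH-high clones: IMPDH2, for example, had 268.48 to 324.06 CPM in ALDH-high clones, 328.88 in wild type and 119.68 to 149.8 in ALDH-low clones. The most opposite were PTPRD, a receptor phosphatase gene (-0.99), RTN4R, the Nogo receptor gene (-0.98), RP11-63P12.6 (-0.98), TMCO3 (-0.98), APCDD1L (-0.97) and DPP7 (-0.97). APCDD1L is a paralog of the Wnt inhibitor gene APCDD1 and was at 1.04, 1.34 and 1.24 CPM in the ALDH-low clones, at 0 to 0.08 CPM among the ALDH-high clones and at 0.12 CPM in wild type. No other member and no gene of the pathway lists was among these 12 genes. The 7 libraries share the ALDH contrast, so these correlations are not separate from it, and no p is given. CTD-2269F5.1, EPHA7, SMARCD3 and PCSK1N reached 1 CPM in no ALDH-low clone. PTPRD, RTN4R, RP11-63P12.6, APCDD1L and DPP7 reached it in no ALDH-high clone. These genes therefore entered the comparison only through the group in which they were high. GLT8D1 and APCDD1L did not pass (limma adjusted p = 0.0788 and 0.051).

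**Figure D4:**
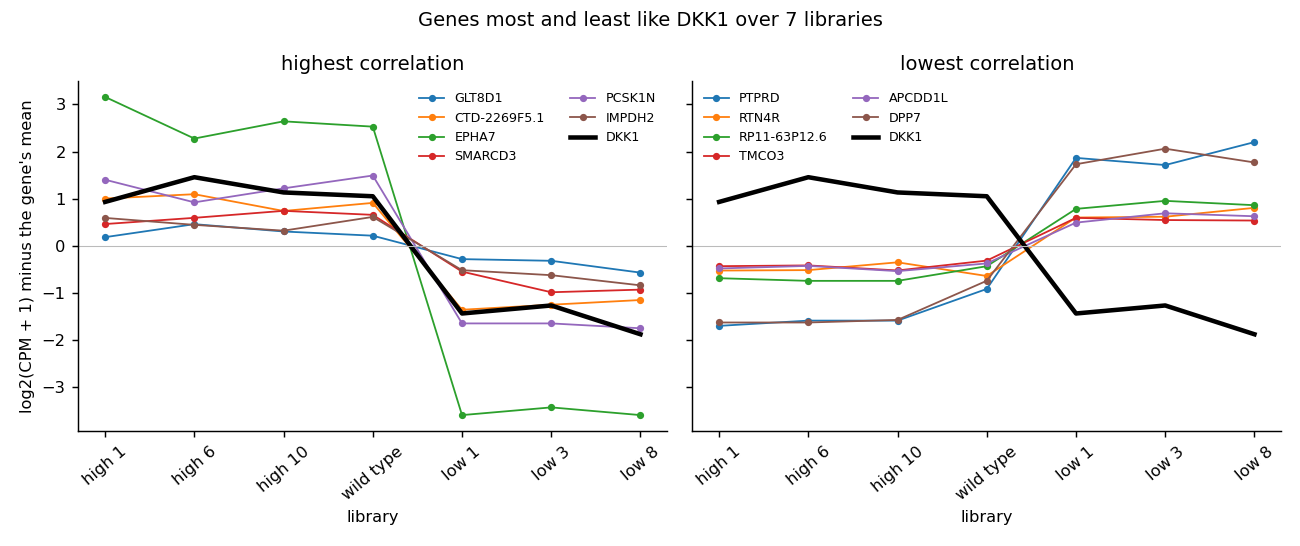
Level of the 6 genes with the highest (left) and the 6 with the lowest (right) correlation with DKK1, as log2(CPM + 1) minus each gene's mean over the 7 libraries (vertical axis), by library (horizontal axis); the thick black line is DKK1. In both panels the wild type lies on the side of the ALDH-high clones.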

How the data were processed

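Total RNA of 7 UM-UC-3 libraries was sequenced. The authors deposited 1 table of CPM, rounded to 2 decimals, whose columns sum to between 967084.9 and 1019855.1, and the submitters' processing notes list the aligner BWA (0.5.9) and 2 builds, hg19 and mm9, without a role. Column names end in the name of the R package CAGEr, per the file headers. The sources used here do not give the method of counting. Each gene of the table has at least 0.52 CPM in some library, and 1017 genes share all values with another gene. Low values did not resolve into whole reads in all libraries, so no count model was run.

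The 12705 genes that reached 1 CPM in 3 or more of the 6 clones were fitted, as log2(CPM + 1), by limma (3.58.1, R 4.3.3; eBayes with trend, two-sided, Benjamini-Hochberg over all genes, threshold 0.05). The labels do not say that clones were cultured separately more than once, so p-values measure the spread between these clones. The wild type entered no test. In simulated data for this comparison (12705 genes, 200 changed), 42% of changes of 1 log2 unit were found. For changes of 3 log2 units it was 99%, and 6 unchanged genes were called. The errors were drawn separately for each gene, so shifts shared by a whole library were not simulated. The members and lists were chosen with earlier results of these data known. By rule the text names all members, the 3 genes of each list with the smallest p, any that passed, and the 6 genes most and least like DKK1. Promoter sequences are from RefSeq (GRCh38.p14), and chromosome names and overlaps from GENCODE 29. The closing section gives the alternatives.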

Additional observations from a re-analysis of the deposited data

How the results depend on the processing

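Alternatives changed the pseudocount (0.1 or 5), the filter (none, or 5 CPM), the scaling (by median ratio or by quantiles), the variance model (eBayes with no trend, or robust) or the libraries (wild type added, or each clone omitted in turn). DKK1 rose in all 15, between 1.29 (pseudocount 5) and 4.12 log2 units (pseudocount 0.1). No other tested member passed in any alternative, and only TCF7 changed sign, with 0.22 log2 units becoming -0.00343 without ALDH-high clone 6 and -0.11 without ALDH-low clone 3 (range over clones left out -0.11 to 0.52). The cause was not tested. The 170 called genes became 86 with the filter at 5 CPM, where fewer genes were tested, and 34 to 173 with a clone left out. They became 57 without ALDH-high clone 6, 34 without clone 10, 44 without ALDH-low clone 1 and 37 without clone 8. The 31 genes correlated with DKK1 at 0.95 or more became 10 with pseudocount 5, 19 with the filter at 5 CPM and 63 over the 6 clones only. LGR4 and PPARD passed without ALDH-low clone 3 (-2.76 and -1.31 log2 units, limma adjusted p = 0.043 and 0.0286). The planned count models were not run, because too few low values of ALDH-high clone 6 and ALDH-low clone 3 came out as whole reads. No paired analysis was possible because the groups share only clone number 1, which names separate clones. Levels under 1 CPM, such as those of NKD1 and of DKK1 in ALDH-low clones, are limited by depth.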

Other observations

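Within the ALDH-low group, clone 3 differed from clones 1 and 8 in several Wnt genes that were singled out after their values were seen. WNT5A, a ligand that mostly acts without beta-catenin, was at 3.6 CPM in ALDH-low clone 1, 2.52 CPM in clone 8 and 0.04 CPM in clone 3, against 0.12 to 0.29 CPM in the ALDH-high clones and wild type. ROR1, which encodes a receptor of WNT5A, was at 27.64 CPM in ALDH-low clone 1, 27.8 CPM in clone 8 and 0.98 CPM in clone 3. The ALDH-high clones and wild type lay between, at 4 to 11.82 CPM. LGR4, the R-spondin receptor gene, was at 17.48 CPM in ALDH-low clone 1, 6.2 CPM in clone 8 and 0.27 CPM in clone 3, where the ALDH-high clones had 0.24 to 1.15 CPM. ROR1 and LGR4 did not pass the comparison of the ALDH groups by limma (adjusted p = 0.876 and 0.31), and WNT5A was below the filter. A split of 2 clones against 1 within a group was not tested.

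DKKL1, a relative of the DKK genes, had 4.08 CPM in wild type and 0.12 to 0.96 CPM in the 6 clones.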
